A study of Mus musculus with 43 samples.

Results

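An antibody against interleukin-33 (IL-33) was compared here with an isotype control antibody in mouse lung, after 15 weeks of house dust mite (HDM). The sample titles give no start, length or dose for either antibody. Whether IL-33 was blocked from the first week or only later is therefore not known here. The libraries were chosen by their sample titles, which gave 15 libraries with the anti-IL-33 antibody and 4 with the isotype antibody, 19 of the 43 libraries of the study. Both groups were HDM-exposed for 15 weeks, and the difference between them is described across all genes. The other 24 libraries were 7 from saline mice, whose labels give no time, 7 from mice exposed to HDM for 15 weeks without antibody, and 10 exposed for 4 weeks without antibody. Each library is strand-specific mRNA sequencing of whole lung. All mice, saline included, carried the same genotype, Il33hu/hu, in which the mouse Il33 gene is replaced by a human form, on a strain labelled C57BL/6NTac (75%) / 129S6SvEvTac (25%). The labels do not say that each library came from a separate animal, and p-values therefore measure the spread between these libraries. Sample numbers fall into 2 ranges, and what these stand for the sources used here do not give. Isotype replicates 1 to 3 and 8 anti-IL-33 libraries are in range 1, and isotype replicate 4 and 7 anti-IL-33 libraries are in range 2.

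IL-33 is a cytokine of the IL-1 family that is stored in the nuclei of epithelial and stromal cells and released when tissue is damaged. It binds the receptor ST2, encoded by Il1rl1, with the shared chain encoded by Il1rap, and signals through Myd88. In the lung it acts on group 2 innate lymphoid cells, mast cells, macrophages and T helper cells, and is best known for driving the type 2 cytokines IL-5 and IL-13. IL-13 in turn acts through STAT6 on epithelium, stroma and macrophages, and HDM is a common aeroallergen used to set off this response in mice.

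Total counts ran from 8354316 to 10243469 in the isotype libraries and from 5126491 to 12599467 in the anti-IL-33 libraries, with means of 8923264 and 9440884 (exact permutation test over 3876 arrangements, p = 0.659). Lung markers were abundant: the 16 type II alveolar cell markers summed to 56100 to 75600 CPM (counts per 1000000 counts of the library) in the isotype libraries and to 33200 to 67900 CPM in the anti-IL-33 libraries. Of the 43 libraries, 2 stood apart from their own groups, with median correlations of 0.916 (15-week HDM without antibody, replicate 1) and 0.923 (4-week HDM, replicate 3). Neither belongs to the antibody groups, but both enter the shared estimate of spread. Markers of tissues next to the lung varied widely: 10 fat cell markers summed to 744 to 886 CPM with isotype and to 349 to 3500 CPM with anti-IL-33, and 10 red blood cell markers to 615 to 3310 and 564 to 11500 CPM. Of the 10 fat, 10 red blood cell, 12 cardiac and 9 skeletal muscle markers tested, edgeR called 0 as different between the antibody groups, while 6, 4, 1 and 0 had an unadjusted p under 0.05, a level that 4352 of all genes (27.9%) passed. DESeq2 called 1 fat and 1 red blood cell marker and limma-voom 0 of these markers. Without the 2 HDM libraries that stood apart, edgeR called 3 fat markers and 1 red blood cell marker, all higher with anti-IL-33. It called 0 cardiac and 0 skeletal muscle markers in that fit, in which 29.8% of all genes were called.

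With the antibody, 489 genes fell and 557 rose among 15598 genes tested. Among the fallen genes were the IL-13 receptor gene Il13ra2, the arginase gene Arg1 and the chemokine genes Ccl11 and Ccl2, and among the risen genes were Zbtb16, Sult1d1 and the club cell gene Scgb3a2. The test was edgeR's quasi-likelihood test over all 43 libraries with a term for the number range, and "rose", "fell" and "called" below mean a Benjamini-Hochberg adjusted p under 0.05. The 1046 calls are 6.71% of the genes tested, 3.57% higher and 3.14% lower, and the median log2 difference over all genes was 0.011. Some lists below had a share of called members near that 6.71%. These are the endothelial (5.56%), goblet cell (5.88%), alveolar macrophage (7.14%) and acute phase (9.09%) lists. The T cell (11.1%), monocyte (11.8%) and immediate early (13.3%) lists were not far above. Calls in these lists are given gene by gene. Of the called genes, 277 differed at least 2-fold, 132 higher and 145 lower. All 15 anti-IL-33 libraries lay below all 4 isotype libraries for 141 genes (0.904% of those tested), of which 77 were called, and above them for 238 genes (1.53%), of which 135 were called.

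The number of calls depended on which libraries entered the fit, more than the direction of the differences did. Without isotype replicate 1, 94 genes (0.595% of those tested) were called, and without isotype replicate 3, 58 genes (0.367%), while every one of the 1046 called genes kept its sign in both fits. Without isotype replicate 4 the count was 683. Without isotype replicate 2 it was 935, and 1041 of the 1046 genes kept their sign. Leaving out 1 anti-IL-33 library at a time gave 534 calls (without replicate 6) to 1502 calls (without replicate 12). Without the 2 HDM libraries that stood apart, 4639 genes (29.8%) were called, among them all 1045 of the called genes that were still tested. In a fit of the 19 antibody libraries alone, 4153 genes were called. Of the 1046 calls, 32 held whichever of the 4 isotype libraries was left out, 28 lower and 4 higher, and the same 32 also held without each of the 15 anti-IL-33 libraries. Of the 110 called genes that are named, 86 held without each anti-IL-33 library. The other 24 lost their call in at least 1 of those fits, with a highest adjusted p of 0.0509 to 0.0775; they were Ccl20, Retnla, Cxcl5, S100a8, Saa3, Tnc, Col3a1, Inhba, Inhbb, Creld2, Pou2af1, Ccl21a, Lta4h, Sftpd, Cbr2, Cyp2s1, Clic5, Tcf21, Cd1d2, Emcn, Camk1d, Ly6c1, Bex4 and Jpx. A test against a difference of 1.5-fold called 21 genes, all lower.

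**Figure D1:**
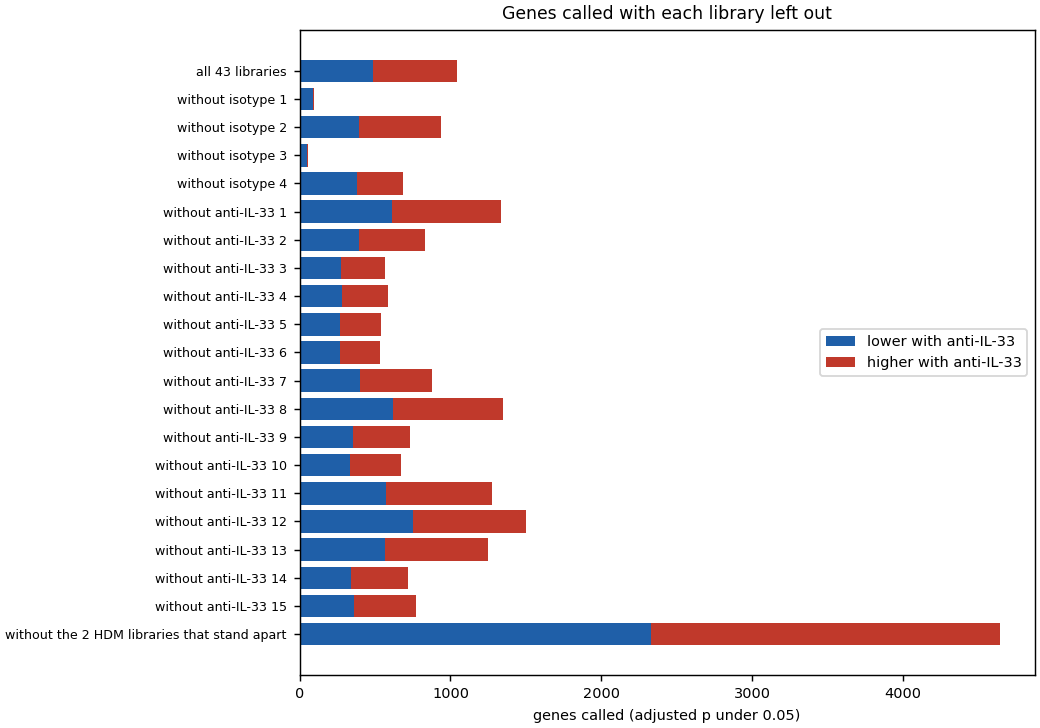
Number of genes called lower (blue) and higher (red) with anti-IL-33 against isotype, in the fit of all 43 libraries and with libraries left out (x axis: genes called at an adjusted p under 0.05). The bars without isotype 1 (94 genes) and isotype 3 (58 genes) are the shortest, and the bar without the 2 HDM libraries that stand apart (4639 genes) is the longest.

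Among genes that the naming rule takes, the largest fall was in Il13ra2, which encodes a high-affinity receptor that binds IL-13 and is itself induced by IL-13 (chrX:147383478-147429192, GRCm38). Its level was 5.51, 2.32, 9.12 and 0.688 CPM in isotype replicates 1 to 4, against a lowest of 0, a median of 0.265 and a highest of 0.818 CPM over the 15 anti-IL-33 libraries. Of the anti-IL-33 libraries, 13 lay below all isotype libraries and the others overlapped only isotype replicate 4. The log2 difference was -3.41 ± 0.51 (SE; adjusted p = 0.000192), and the adjusted p ran from 4.63e-05 to 0.0113 with 1 isotype library left out. Within the number ranges the difference was -4.45 in range 1 and -0.63 in range 2, where the only isotype library is replicate 4.

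The other large falls joined a secreted hormone, a carrier protein, transcription factors and chemokines. Cebpe, a transcription factor of granulocyte maturation (chr14:54710363-54712174), stood at 3.46, 1.59, 8.88 and 1.38 CPM with isotype, and all 15 anti-IL-33 libraries lay below, at 0 to 1.3 CPM with a median of 0.307. Its log2 difference was -3.08 ± 0.53 (adjusted p = 0.000643; -2.3 with an adjusted p of 0.0626 without isotype replicate 3, and an adjusted p of 0.000322 to 0.00326 without each of the other 3). Fgf23, a hormone of phosphate balance, stood at 16.4, 6.47, 22.5 and 5.31 CPM with isotype and at 0 to 9.92 CPM with anti-IL-33, median 0.594, with 13 of 15 libraries below all isotype libraries (log2 difference -2.95 ± 0.64, adjusted p = 0.00721; 0.0872 without isotype replicate 3 and 0.0059 to 0.0488 without each other isotype library). Rbp4, the plasma carrier of retinol, stood at 51.6, 61.9, 199 and 22.1 CPM with isotype and 6.83 to 25.4 CPM with anti-IL-33, median 8.71, with 12 libraries below (log2 difference -2.69 ± 0.44, adjusted p = 0.000458; -1.84 with an adjusted p of 0.0616 without isotype replicate 3). Isotype replicate 3 was the highest of the 4 for each of these genes. Fxyd4, a regulator of the sodium pump, lay below all isotype libraries in 15 of 15 (log2 difference -2.71 ± 0.45, adjusted p = 0.000471), and Sox9, a transcription factor of airway progenitors and cartilage, lay below in 12 (-2.55 ± 0.46, adjusted p = 0.00121). Both held without each isotype library, at adjusted p of 0.000802 to 0.0167 for Fxyd4 and 0.000322 to 0.0203 for Sox9.

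Duoxa1 lost its call without its highest isotype library, and Zfp457 shows how a single library can carry a call. Duoxa1, a maturation factor for the hydrogen peroxide producing dual oxidase, stood at 13.3, 4.52, 0.608 and 1.67 CPM with isotype and 0 to 1.99 CPM with anti-IL-33 (log2 difference -2.78 ± 0.64, adjusted p = 0.0112). Isotype replicates 1 and 2 both lay above all anti-IL-33 libraries. Without isotype replicate 1 the log2 difference was -1.73 (adjusted p = 0.242), in a fit that called 94 genes. With 15-week HDM without antibody as control it was -2.91 (adjusted p = 0.000268). Zfp457, a zinc finger gene, stood at 0.384, 21.8, 0.73 and 0.983 CPM with isotype and 0.41 to 1.58 CPM with anti-IL-33. Only isotype replicate 2 was high, and without it the log2 difference turned from -2.61 ± 0.48 (adjusted p = 0.00155) to 0.42 (adjusted p = 0.496).

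Promoter windows from RefSeq (GRCm38.p6, 250 bases before to 50 after the start site) were searched on both strands for the STAT6 form of the STAT motif (TTC and GAA with any 4 bases between) and for the form of the other STAT factors (TTC and GAA with any 3 bases between), because IL-13 signals through STAT6. The 2 forms cannot match the same stretch, although they can share a half-site. Of the 12 genes with the largest falls, 8 had a window that was searched. The STAT6 form was in those of Fgf23 and Rbp4, and the other form in those of Fgf23 and Zfp457. Of the 12 largest rises, 6 had a window that was searched, and 0 of those 6 held either motif. Genes without a searched window may hold either motif, and nothing is concluded for them. Of the 15509 windows of tested genes, 5.53% held the STAT6 form and 7.07% the other form, against 6.95% and 8.3% of all 32851 windows. These are shares of windows, and a gene can have more than 1. These are matches of letters and not measured binding. The windows are shown 5′ to 3′ on the gene's strand for Il13ra2, which held neither motif, and for both genes with the STAT6 form, with the matches in capitals, at chrX:147429143-147429442 (minus strand), chr6:127072652-127072951 (plus strand) and chr19:38125272-38125571 (minus strand, 1 of its 2 windows).
Il13ra2: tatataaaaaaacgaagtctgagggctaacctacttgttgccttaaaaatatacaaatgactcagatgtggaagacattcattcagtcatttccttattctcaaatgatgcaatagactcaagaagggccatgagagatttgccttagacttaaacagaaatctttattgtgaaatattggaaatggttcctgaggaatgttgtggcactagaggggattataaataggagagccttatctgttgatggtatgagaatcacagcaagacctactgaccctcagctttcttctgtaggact
Fgf23: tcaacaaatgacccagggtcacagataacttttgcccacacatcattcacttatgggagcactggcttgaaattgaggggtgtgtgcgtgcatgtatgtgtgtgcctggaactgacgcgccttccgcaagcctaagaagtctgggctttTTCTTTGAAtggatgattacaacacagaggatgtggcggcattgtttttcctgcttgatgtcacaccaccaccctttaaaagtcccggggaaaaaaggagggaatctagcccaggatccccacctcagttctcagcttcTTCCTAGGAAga
Rbp4: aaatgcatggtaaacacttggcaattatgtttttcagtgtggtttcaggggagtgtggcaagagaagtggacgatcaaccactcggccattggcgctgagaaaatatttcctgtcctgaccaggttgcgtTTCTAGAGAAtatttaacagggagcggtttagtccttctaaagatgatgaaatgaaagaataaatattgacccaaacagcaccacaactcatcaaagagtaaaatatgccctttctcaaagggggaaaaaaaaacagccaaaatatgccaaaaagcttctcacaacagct

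Of the IL-33 axis, the cytokine's own transcript and its receptor fell, and the shared chain did not pass the test. Il33 (chr19:29925113-29960718) stood at 620, 537, 832 and 454 CPM with isotype and had a lowest of 21.5, a median of 248 and a highest of 511 CPM with anti-IL-33. In 14 of 15 anti-IL-33 libraries it lay below all isotype libraries, and replicate 8 was the lowest by far at 21.5 CPM. The log2 difference was -1.33 ± 0.35 (adjusted p = 0.025), with an adjusted p of 0.106 and 0.148 without isotype replicates 1 and 3 and of 0.0372 and 0.0242 without replicates 2 and 4. The sources used here do not give which part of the humanised locus these counts cover or against which sequence its reads were aligned, so the level is that of reads assigned to the mouse gene. Il1rl1 stood at 35.4, 31.1, 47.1 and 17.7 CPM with isotype and at 6.58 to 24.8 CPM with anti-IL-33, median 12.6, with 13 libraries below (log2 difference -1.25 ± 0.26, adjusted p = 0.00518; 0.0802 without isotype replicate 3 and 0.0011 to 0.0328 without each other). Its difference was -1.87 in range 1 and -0.03 in range 2. Il1rap had a log2 difference of 0.01 ± 0.19 (adjusted p = 0.985) and the epithelial alarmin Tslp of 0.1 ± 0.28 (adjusted p = 0.832). Of 12 tested genes of the IL-33 and alarmin list, 3 fell and 0 rose, the third being Il7r (-0.74 ± 0.21, adjusted p = 0.0316; 0.0851, 0.0824 and 0.176 without isotype replicates 1, 2 and 3). Il25 had too few counts to be tested, with at most 1 read in a library.

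Of 13 tested type 2 cytokine and receptor genes, 5 fell and 0 rose, and their median log2 difference was -0.68. After 15 weeks of HDM, 10 of the 13 had risen against saline, a comparison in which 59.2% of all genes were called, 31.2% higher and 28.1% lower. Il13 (chr11:53631323-53634702), the cytokine of mucus production and airway remodelling, stood at 2.18, 1.95, 3.16 and 0.983 CPM with isotype and at 0 to 1.17 CPM with anti-IL-33, median 0.209. It lay below all isotype libraries in 14 of 15, and saline lungs ran from 0 to 0.4 CPM. The log2 difference was -2.56 ± 0.55 (adjusted p = 0.00701; 0.0802 without isotype replicate 3 and 0.0059 to 0.0396 without each other), with -4.17 in range 1 and -0.85 in range 2. Il5, the growth factor of eosinophils, stood at 1.15, 0.61, 1.95 and 0.393 CPM with isotype and at 0 to 0.542 CPM with anti-IL-33, median 0.0951, also with 14 of 15 below. Its log2 difference was -2.68 ± 0.57 (adjusted p = 0.00586; 0.104 without isotype replicate 3 and 0.00275 to 0.0361 without each other). Both cytokines rest on few reads per library. The list held 3 calls without isotype replicate 1 and 1 without replicate 3. Il4 had a log2 difference of -0.86 ± 0.5 (adjusted p = 0.256) at 0.197 to 1.09 CPM with isotype, and Il9 and Il3 had too few counts. Cish, a feedback inhibitor of cytokine signalling, fell by 0.68 ± 0.14 on the log2 scale (adjusted p = 0.00586; 0.081 and 0.0542 without isotype replicates 1 and 3).

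Chemokines that attract eosinophils and monocytes fell with the antibody, and without isotype replicate 3 their list held 4 calls, the most of the 39 lists. Of 20 tested CC chemokine and receptor genes 7 fell and 1 rose, the median log2 difference was -0.66, and 17 had risen with 15 weeks of HDM. Ccl11 (eotaxin-1, chr11:82057832-82062955) stood at 94.1, 51, 88.2 and 23.7 CPM with isotype and at 3.83 to 28.2 CPM with anti-IL-33, median 13.9. In 13 of 15 libraries it lay below all isotype libraries, and saline lungs ran from 1.48 to 7.67 CPM. The log2 difference was -2.15 ± 0.37 (adjusted p = 0.000632; 0.000154 to 0.0145 with 1 isotype library left out). Ccl2, which attracts monocytes through CCR2, stood at 16.1, 10.4, 17 and 8.55 CPM with isotype and at 1.23 to 7.37 CPM with anti-IL-33, median 3.02, with no overlap between the groups. It fell by 2.14 ± 0.33 (adjusted p = 0.000256; 0.000154 to 0.0048 with 1 isotype library left out). Ccl7, its neighbour and close relative in the same cluster, also showed no overlap (-2.06 ± 0.38, adjusted p = 0.00164; 0.00143 to 0.0376), and Ccl9 fell by 1.74 ± 0.28 (adjusted p = 0.000398; 0.000143 to 0.0113). These 4 chemokines were called whichever isotype library was left out. Ccl24 (eotaxin-2) stood at 5.51, 2.68, 11.8 and 0.491 CPM with isotype and 0 to 2.96 CPM with anti-IL-33, median 0.495, and 7 of 15 libraries lay below all isotype libraries. Its log2 difference of -2.63 ± 0.62 (adjusted p = 0.0135) lost its call without isotype replicates 1 (0.0675) and 3 (0.182), and it was -3.65 in range 1 and 0.79 in range 2. The CCR4 ligands Ccl17 (-0.67 ± 0.36, adjusted p = 0.207) and Ccl22 (-0.24 ± 0.23, adjusted p = 0.49), and Ccl8 (-0.53 ± 0.34, adjusted p = 0.295), did not pass the test. Ccl20, which attracts CCR6-bearing lymphocytes, was the member that rose, from 0.384, 0.488, 0.487 and 1.97 CPM with isotype to a median of 2.54 CPM (log2 difference 1.76 ± 0.56, adjusted p = 0.0488; 0.221, 0.101 and 0.185 without isotype replicates 1, 2 and 3).

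**Figure D2:**
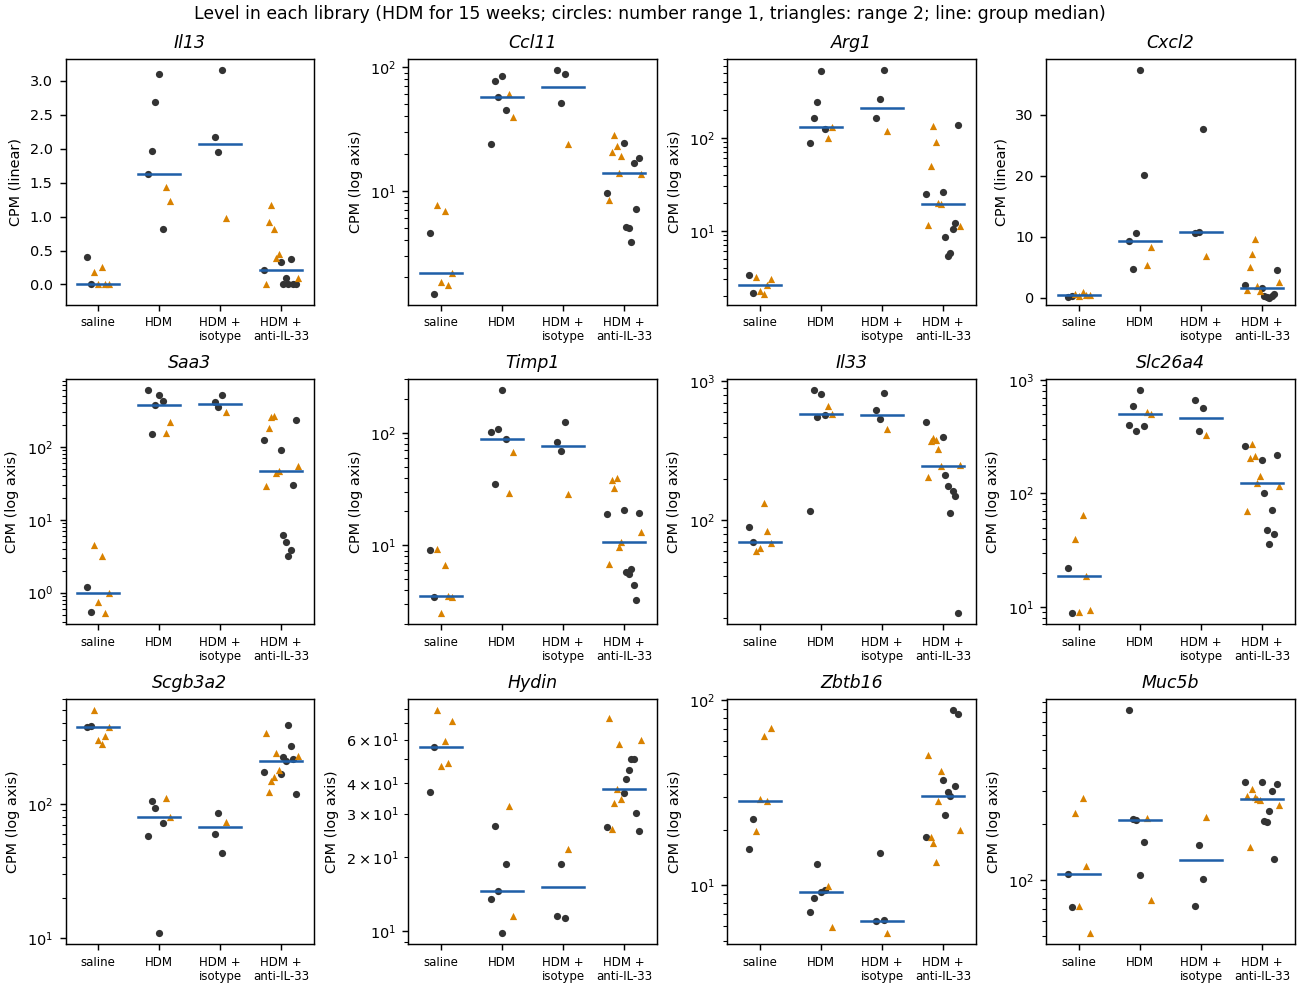
Level of 12 genes in CPM (linear axis for Il13 and Cxcl2, log axis for the rest) in each saline, 15-week HDM, HDM plus isotype and HDM plus anti-IL-33 library. Circles are number range 1, triangles range 2 and lines group medians; the anti-IL-33 points of Ccl11, Arg1 and Saa3 lie mostly between the saline and isotype points, and those of Scgb3a2, Hydin and Zbtb16 lie above the isotype median.

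Eosinophil genes themselves were mixed. Of 11 tested markers 1 fell and 1 rose. Rnase2a, an eosinophil-associated ribonuclease, stood at 33.4, 25.9, 69.7 and 10.3 CPM with isotype and 0.966 to 18.2 CPM with anti-IL-33, median 4.85 (log2 difference -2.55 ± 0.52, adjusted p = 0.00518; 0.1 without isotype replicate 3 and 0.00141 to 0.0201 without each other). Ear1, a ribonuclease of the same family that is also listed as an alveolar macrophage marker, rose from 3.05 to 4.74 CPM with isotype to a median of 8.06 CPM, above all isotype libraries in 13 of 15 (1.64 ± 0.42, adjusted p = 0.0215; 0.106, 0.0802 and 0.0503 without isotype replicates 1, 3 and 4). These ribonucleases are a multigene family of similar sequence, and the sources used here do not give how the authors' counting split shared reads. The granule protein Prg2 (-0.38 ± 0.28, adjusted p = 0.371) and the surface receptor Siglecf (0.07 ± 0.29, adjusted p = 0.888) did not pass the test, and Epx was near 0 in both groups. In whole lung, fewer cells of a type and less RNA per cell cannot be told apart, here and for every cell type below.

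Of 18 tested genes of alternatively activated macrophages, the state set off by IL-4 and IL-13, 6 fell and 0 rose, with a median log2 difference of -0.59. Arg1, arginase 1 (chr10:24915207-24927470), stood at 162, 261, 535 and 117 CPM with isotype and at 5.36 to 136 CPM with anti-IL-33, median 19.3, and at 2.11 to 3.33 CPM in saline lungs. It lay below all isotype libraries in 13 of 15 (log2 difference -2.93 ± 0.57, adjusted p = 0.00353; 0.0707 without isotype replicate 3 and 0.0022 to 0.00904 without each other). Retnla, the secreted resistin-like protein of these cells, stood at 3390, 1600, 4380 and 685 CPM with isotype and at 98.4 to 1580 CPM with anti-IL-33, median 566. Only 8 of 15 libraries lay below all isotype libraries, and the difference of -2.26 ± 0.67 (adjusted p = 0.0375; 0.164 and 0.182 without isotype replicates 1 and 3) was -3.22 in range 1 and 0.31 in range 2. Mmp12, the macrophage elastase, stood at 386, 664, 1150 and 197 CPM with isotype and at 15.5 to 438 CPM with anti-IL-33, median 73.5 (-2.51 ± 0.58, adjusted p = 0.012; 0.125 without isotype replicate 3). Its difference was -3.25 in range 1 and -0.1 in range 2. Tgm2, a crosslinking transglutaminase, fell by 0.72 ± 0.16 (adjusted p = 0.00723; 0.102 without isotype replicate 3). The chitinase-like genes were not called: Chil3 stood at 8470, 10600, 21000 and 15900 CPM with isotype and at 1190 to 21800 CPM with anti-IL-33, median 7890 (-0.59 ± 0.47, adjusted p = 0.407), and Chil4 had a difference of -2.02 ± 0.89 (adjusted p = 0.132). Chil4 was called in range 1 alone (-3.19, adjusted p = 0.0263) and in the fit of the 19 antibody libraries alone (adjusted p = 0.0269), and its difference was 1.77 in range 2. Without isotype replicate 3, 0 of the 18 genes were called by edgeR, and without replicate 1, 4 were. Of 14 alveolar macrophage markers only Ear1 was called, and of 17 monocyte and interstitial macrophage markers 2 fell: Ly6c2, the Ly6C of inflammatory monocytes, below all isotype libraries in 15 of 15 (-1.04 ± 0.24, adjusted p = 0.0112; 0.0912 and 0.0542 without isotype replicates 1 and 4), and the endotoxin co-receptor Cd14 (-1.09 ± 0.25, adjusted p = 0.00934; 0.071 without isotype replicate 3).

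Mediators outside the type 2 arm fell as well. Of 21 tested genes that attract neutrophils or belong to the IL-17 and IL-1 families, 8 fell and 0 rose, with a median log2 difference of -0.89, and 19 had risen with HDM. Cxcl2, a CXCR2 ligand, stood at 10.6, 10.9, 27.6 and 6.88 CPM with isotype and at 0 to 9.62 CPM with anti-IL-33, median 1.68, with 13 of 15 libraries below all isotype libraries (-2.76 ± 0.6, adjusted p = 0.00701; 0.108 without isotype replicate 3). The epithelial CXCR2 ligand Cxcl5 fell by 1.76 ± 0.53 (adjusted p = 0.0409; 0.167, 0.155 and 0.103 without isotype replicates 1, 3 and 4). Il1b stood at 31.8, 22.7, 43.2 and 41.5 CPM with isotype and at 8.37 to 31.2 CPM with anti-IL-33, median 12.9 (-1.18 ± 0.25, adjusted p = 0.00672; 0.0831 without isotype replicate 3). The IL-1 receptor antagonist Il1rn fell too (-1.89 ± 0.43, adjusted p = 0.0103; 0.108 without isotype replicate 3), as did Il6 (-1.64 ± 0.44, adjusted p = 0.0252; 0.152 and 0.111 without isotype replicates 1 and 3). The values of Cxcl1 (-1.12 ± 0.39, adjusted p = 0.0682), Tnf (-0.8 ± 0.27, adjusted p = 0.0627), Il17a (-1.48 ± 0.83, adjusted p = 0.237) and Lcn2 (-0.89 ± 0.38, adjusted p = 0.124) did not pass the test. Tnf was called by DESeq2 (adjusted p = 0.0462) and by limma-voom (adjusted p = 0.042). The list held 3 calls without isotype replicate 1 and 0 without replicate 3.

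Neutrophil markers moved in the same samples: 6 of 14 tested fell, 0 rose, and the median was -0.73. Their summed level ran from 471 to 637 CPM with isotype and from 186 to 605 CPM with anti-IL-33, medians 517 and 328. Cxcr2, the receptor for these chemokines, stood at 37.5, 30.4, 40.9 and 36.8 CPM with isotype and at 11.3 to 25.8 CPM with anti-IL-33, median 16.5, with no overlap (-1.07 ± 0.23, adjusted p = 0.00679; 0.0631 without isotype replicate 3). Retnlg fell by 1.36 ± 0.25 (adjusted p = 0.00174; 0.0802 without isotype replicate 3), Il1r2 by 1.41 ± 0.35 (adjusted p = 0.0194; 0.104 and 0.137 without isotype replicates 1 and 3) and the calprotectin subunit S100a8 by 0.92 ± 0.29 (adjusted p = 0.048; 0.0602 to 0.219 with 1 isotype library left out). Ly6g, at no more than 2.51 CPM in any of the 19 libraries, had a difference of -0.63 ± 0.49 (adjusted p = 0.395), and the granule genes Camp, Elane and Mpo were below 1 CPM throughout. The list held 2 calls without isotype replicate 1 and 0 without replicate 3. The part of neutrophil markers in the fall of Il1b and Cxcl2 was not tested.

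Of 22 acute phase and complement genes 2 fell and 0 rose (9.09%, against 6.71% of all genes), and their median was -0.37. With HDM 17 of the 22 had risen, in a comparison where 31.2% of all genes were higher. Saa3, an inducible serum amyloid, stood at 414, 353, 515 and 299 CPM with isotype and at 3.15 to 269 CPM with anti-IL-33, median 46.8. All 15 anti-IL-33 libraries lay below all isotype libraries, and saline lungs ran from 0.522 to 4.49 CPM. The anti-IL-33 libraries were widely spread, and the log2 difference was -2.19 ± 0.67 (adjusted p = 0.0447; 0.0586 to 0.159 with 1 isotype library left out). The complement component C3 fell by 0.77 ± 0.17, also with no overlap (adjusted p = 0.00723; 0.0802 without isotype replicate 3).

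Of 33 extracellular matrix and remodelling genes 10 fell and 1 rose, with a median of -0.41, and 23 had risen with HDM. Timp1, an inhibitor of matrix metalloproteinases, stood at 82.7, 68.6, 124 and 28.7 CPM with isotype and at 3.29 to 39.3 CPM with anti-IL-33, median 10.8, with 12 of 15 libraries below all isotype libraries (-2.29 ± 0.49, adjusted p = 0.00687; 0.0831 without isotype replicate 3). Spp1, osteopontin, fell by 1.98 ± 0.5 (adjusted p = 0.0198; 0.093 and 0.132 without isotype replicates 1 and 3), with -2.36 in range 1 and 0.05 in range 2. Among structural genes, the basement membrane collagen Col15a1 stood at 74.9, 50.2, 111 and 74.2 CPM with isotype against a median of 30.8 CPM (-1.24 ± 0.26, adjusted p = 0.00646; 0.102 without isotype replicate 3). Tnc, tenascin C, fell by 0.92 ± 0.26 (adjusted p = 0.031; 0.0534 to 0.15 without isotype replicates 1, 2 and 3). Fibrillar Col3a1 fell by 0.7 ± 0.2 (adjusted p = 0.0352; 0.0605 to 0.17 without isotype replicates 1, 2 and 3), and Col1a1 had a difference of -0.58 ± 0.28 (adjusted p = 0.174). The list held 3 calls without isotype replicate 1, 5 without replicate 2 and 0 without replicate 3. The activin subunits Inhba (-1.6 ± 0.51, adjusted p = 0.0496) and Inhbb (-0.61 ± 0.19, adjusted p = 0.046) and the activin antagonist Fst (-1.13 ± 0.29, adjusted p = 0.0193) were the 3 of 20 TGF-beta and activin genes that fell. None of those 3 was called without isotype replicate 1 or 3, at adjusted p of 0.0771 to 0.215.

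In the airway epithelium the goblet cell program did not move as a block. Of 17 tested goblet cell and mucus genes 1 fell and 0 rose, with a median of -0.09. That gene was Slc26a4, pendrin, an anion exchanger of the airway surface that is induced by IL-13: it stood at 666, 356, 571 and 326 CPM with isotype and at 36 to 275 CPM with anti-IL-33, median 125, with no overlap (-1.84 ± 0.37, adjusted p = 0.00518; 0.0513 without isotype replicate 1 and 0.00413 to 0.043 without each other). The secreted mucin Muc5b stood at 73, 154, 101 and 219 CPM with isotype and at 129 to 336 CPM with anti-IL-33, median 271 (0.91 ± 0.41, adjusted p = 0.14). The other gel-forming mucin, Muc5ac, had a value of 0.47 ± 0.52 (adjusted p = 0.561), and the goblet cell protein gene Clca1 of -0.72 ± 0.81 (adjusted p = 0.571). For Muc5ac, Muc5b and Clca1 the anti-IL-33 and isotype libraries overlapped.

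Of 14 club and secretory cell markers 3 rose and 0 fell, with a median of 0.78. Scgb3a2, a secretoglobin of airway club cells, stood at 60.2, 85.9, 43.1 and 74 CPM with isotype and at 118 to 385 CPM with anti-IL-33, median 210, with no overlap, against 282 to 504 CPM in saline lungs (1.72 ± 0.4, adjusted p = 0.0123; 0.081 and 0.102 without isotype replicates 1 and 3). Cyp2f2, a club cell cytochrome P450, stood at 369, 465, 304 and 296 CPM with isotype and at 329 to 1430 CPM with anti-IL-33, median 857 (1.2 ± 0.32, adjusted p = 0.0256; 0.11, 0.128 and 0.0653 without isotype replicates 1, 3 and 4). The carbonyl reductase Cbr2 rose by 0.86 ± 0.27 (adjusted p = 0.0461; 0.0695 to 0.174 with 1 isotype library left out). Of 15 ciliated cell markers 6 rose and 0 fell, all 15 had a positive difference, and the median was 0.59. Hydin, a protein of the ciliary central pair, stood at 11.5, 18.7, 11.3 and 21.6 CPM with isotype and at 25.5 to 73.7 CPM with anti-IL-33, median 37.8, with no overlap, and saline lungs ran from 36.8 to 79.3 CPM (1.33 ± 0.32, adjusted p = 0.0146; 0.0969 and 0.102 without isotype replicates 1 and 3). The axonemal dynein Dnah9 (0.9 ± 0.23, adjusted p = 0.0209; 0.0962, 0.107 and 0.0569 without isotype replicates 1, 3 and 4) and the assembly factor Ccdc40 (0.79 ± 0.19, adjusted p = 0.0154; 0.0718 and 0.1 without isotype replicates 1 and 3) also rose with no overlap. The transcription factor of ciliated cells, Foxj1, had a difference of 0.64 ± 0.25 (adjusted p = 0.0914). Neither the club nor the ciliated list held a call without isotype replicate 1 or without replicate 3, and without replicate 4 they held 1 and 2.

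In the alveoli, 3 of 13 type I cell markers rose and 3 of 16 type II cell markers fell, with medians of 0.48 and -0.3. Rtkn2 (0.85 ± 0.23, adjusted p = 0.0256), Clic5 (0.83 ± 0.25, adjusted p = 0.0423) and Sec14l3 (0.8 ± 0.21, adjusted p = 0.0251) were the type I markers, and Hopx had a value of 0.48 ± 0.22 (adjusted p = 0.141). The type II markers were Il33 itself, surfactant protein gene Sftpd (-0.66 ± 0.21, adjusted p = 0.0495) and Cxcl15, lungkine (-0.51 ± 0.14, adjusted p = 0.0256), while Sftpc had a value of -0.54 ± 0.18 (adjusted p = 0.0522). None of these type I and type II markers was called without isotype replicate 1 or 3, at adjusted p of 0.101 to 0.221. Of 18 fibroblast and smooth muscle markers, Tcf21, a transcription factor of lipofibroblasts, rose by 0.99 ± 0.3 (adjusted p = 0.0417; 0.132, 0.173 and 0.101 without isotype replicates 1, 3 and 4), as did the basement membrane protein gene Npnt (0.81 ± 0.22, adjusted p = 0.027; 0.138 and 0.146 without isotype replicates 1 and 3). Of 18 endothelial markers, 1 fell, Emcn (-0.42 ± 0.13, adjusted p = 0.0423; 0.0507 to 0.242 without isotype replicates 1, 2 and 3).

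Enzymes that metabolise foreign compounds formed the list with the most members that rose: 9 of 24 cytochrome P450 and related genes rose and 0 fell, with a median of 0.75, and 20 of the 24 had fallen with HDM. Sult1d1, a sulfotransferase, stood at 0.769, 3.42, 0.608 and 0.885 CPM with isotype and at 2.51 to 18.3 CPM with anti-IL-33, median 6.35, with 12 of 15 libraries above all isotype libraries (2.33 ± 0.51, adjusted p = 0.00701; 0.065 and 0.0776 without isotype replicates 1 and 3). Cyp2s1 rose with no overlap (0.77 ± 0.22, adjusted p = 0.0329; 0.0687 to 0.158 without isotype replicates 1, 3 and 4). Without isotype replicate 1 or 3 the list held 0 calls by edgeR, without isotype replicate 4 it held 3 and without anti-IL-33 replicate 6 it held 2, and without the 2 HDM libraries that stood apart it held 15.

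A second group of risen genes belongs to the circadian clock and to glucocorticoid responses: 7 of 20 rose and 0 fell, with a median of 0.48. Zbtb16, a transcription factor induced by glucocorticoids, stood at 6.4, 15, 6.45 and 5.5 CPM with isotype and at 13.4 to 89.1 CPM with anti-IL-33, median 30.2. It lay above all isotype libraries in 14 of 15, and saline lungs ran from 15.6 to 70.8 CPM (2.14 ± 0.44, adjusted p = 0.00567; 0.0602 without isotype replicate 3 and 0.00634 to 0.0469 without each other). Per2, a core clock repressor, stood at 9.86, 19.2, 22 and 16.9 CPM with isotype and at 22.4 to 51.5 CPM with anti-IL-33, median 28.5, with no overlap (0.96 ± 0.22, adjusted p = 0.0097; 0.106 without isotype replicate 1). Tef, a clock-controlled transcription factor, rose by 1.01 ± 0.21 (adjusted p = 0.00535; 0.065 without isotype replicate 1). The list held 1 call without isotype replicate 1, 2 without replicate 3 and 4 without replicate 4. The sources used here do not give the hour at which lungs were taken, and its part in these differences was not tested. Of 15 immediate early genes, which respond to handling and tissue dissociation, 2 fell, among them the stress factor Atf3 (-1.27 ± 0.27, adjusted p = 0.00646; 0.089 without isotype replicate 3).

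The remaining large rises had no shared role. Myh7, the slow and cardiac muscle myosin, stood at 8.97, 5.13, 4.5 and 1.57 CPM with isotype and at 3.52 to 62.5 CPM with anti-IL-33, median 18.6 (2.52 ± 0.64, adjusted p = 0.0209; 0.0683, 0.109 and 0.0568 without isotype replicates 1, 3 and 4). The 12 cardiac markers tested, none of them called, summed to 130 to 241 CPM with isotype and 155 to 404 CPM with anti-IL-33, and their part in this rise was not tested. Adrb3, a beta-adrenergic receptor of fat cells, stood at 1.28, 4.39, 1.82 and 2.06 CPM with isotype and at 1.8 to 30.6 CPM with anti-IL-33, median 8.08 (1.77 ± 0.47, adjusted p = 0.0246; 0.146, 0.125 and 0.0558 without isotype replicates 1, 3 and 4). Its highest library, anti-IL-33 replicate 7, was also the highest for the fat marker Adipoq, at 155 CPM against 0.742 to 9.17 CPM in the other 14, and the part of fat in the difference was not tested. Galnt13, a glycosyltransferase (1.78 ± 0.38, adjusted p = 0.00646; 0.065 and 0.0707 without isotype replicates 1 and 3), Gria1, a glutamate receptor subunit (1.79 ± 0.46, adjusted p = 0.0226; 0.126 and 0.132), and Unc79, part of a sodium leak channel (1.79 ± 0.49, adjusted p = 0.0271; 0.152 and 0.129), rose from below 4 CPM in each isotype library. Ccdc187, a coiled-coil protein gene, rose with no overlap (1.67 ± 0.45, adjusted p = 0.0269; 0.145 and 0.142).

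Of 11 markers of group 2 innate lymphoid cells, the main lung cells that answer IL-33, 5 fell and 0 rose, but Il5, Il13, Arg1 and Il1rl1 among them are the genes given above, and the median was -0.25. The fifth, the inhibitory receptor Klrg1, stood at 6.4, 3.91, 8.52 and 5.11 CPM with isotype and at 1.05 to 3.28 CPM with anti-IL-33, median 2.34, with no overlap (-1.33 ± 0.28, adjusted p = 0.00537; 0.0776 without isotype replicate 3). Of 18 T cell markers 2 fell, Il7r and the IL-2 receptor chain Il2ra (-0.78 ± 0.17, adjusted p = 0.00726; 0.107 without isotype replicate 2). Of 15 NK and cytotoxic cell markers and 27 interferon response genes 0 were called by edgeR, with medians of 0.15 and -0.03, and of 13 MHC class II and antigen presentation genes 0 were called, with a median of -0.03. Of these 3 lists 1, 3 and 3 genes had an unadjusted p under 0.05, and DESeq2 and limma-voom also called 0. Against the 15-week HDM libraries without antibody, where 35.8% of all genes were called, 12 of the 15 NK and cytotoxic cell markers were higher with anti-IL-33 and 0 lower. Of the 27 interferon response genes, 13 were higher there and 1 lower. For the NK list the isotype median lay above that of those no-antibody libraries, but the groups overlapped. Between these controls edgeR called 0 genes. The summed level of the NK list had medians of 78.6 CPM with isotype (47.8 to 92.5), 70.7 CPM with anti-IL-33 (34.3 to 137) and 35.8 CPM without antibody (30.4 to 50.3). For the interferon list these medians were 842, 821 and 737 CPM. The cytokine Ifng had a value of 1.14 ± 0.6 (adjusted p = 0.2). Of 13 mast cell and basophil markers and 14 dendritic cell markers edgeR, DESeq2 and limma-voom called 0, with medians of 0.58 and 0.17, and 4 and 5 had an unadjusted p under 0.05. The mast cell protease Cpa3 had a value of 1.14 ± 0.49 (adjusted p = 0.124).

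Genes of antibody-secreting cells and of protein folding in the endoplasmic reticulum fell together in part. Of 14 plasma cell markers 4 fell and 0 rose, all 14 had a negative difference, and 13 had risen with HDM. Pou2af1, a coactivator of antibody genes, fell by 0.88 ± 0.27 (adjusted p = 0.0454) and Txndc5, a disulfide isomerase rich in plasma cells, by 0.66 ± 0.18 (adjusted p = 0.0271), and Jchain, the joining chain of polymeric antibodies, had a value of -0.49 ± 0.49 (adjusted p = 0.521). Of 20 folding and secretion genes 7 fell and 0 rose, with a median of -0.37, led by the disulfide isomerase Pdia6 (-0.52 ± 0.12, adjusted p = 0.0101), the chaperone Dnajb11 (-0.42 ± 0.12, adjusted p = 0.0308) and the stress-induced Creld2 (-0.77 ± 0.22, adjusted p = 0.0352), which is also listed for plasma cells. Without isotype replicate 1 or 3 neither list held a call, at adjusted p of 0.0707 to 0.272 for these genes. Plasma cell markers summed to 4170 to 9980 CPM with isotype and 2870 to 8730 CPM with anti-IL-33, and their part in the fall of folding genes was not tested. In the list of lymphoid aggregate genes 3 of 17 fell: Tnfsf13b, the B cell survival factor BAFF (-0.7 ± 0.15, adjusted p = 0.00586; 0.065 and 0.0549 without isotype replicates 1 and 3), the low-affinity IgE receptor Fcer2a (-0.74 ± 0.19, adjusted p = 0.0194; 0.0851 and 0.137) and the lymph node chemokine Ccl21a (-0.5 ± 0.15, adjusted p = 0.0416; 0.0553 to 0.258 with 1 isotype library left out). Of 19 leukotriene and prostaglandin genes 3 fell, with the clearest value in Ptges, prostaglandin E synthase: 96.3, 88, 88.4 and 86.7 CPM with isotype against 36.5 to 75.3 CPM with anti-IL-33, median 55.2 (-0.74 ± 0.15, adjusted p = 0.00495; 0.00895 to 0.036 with 1 isotype library left out).

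**Figure D3:**
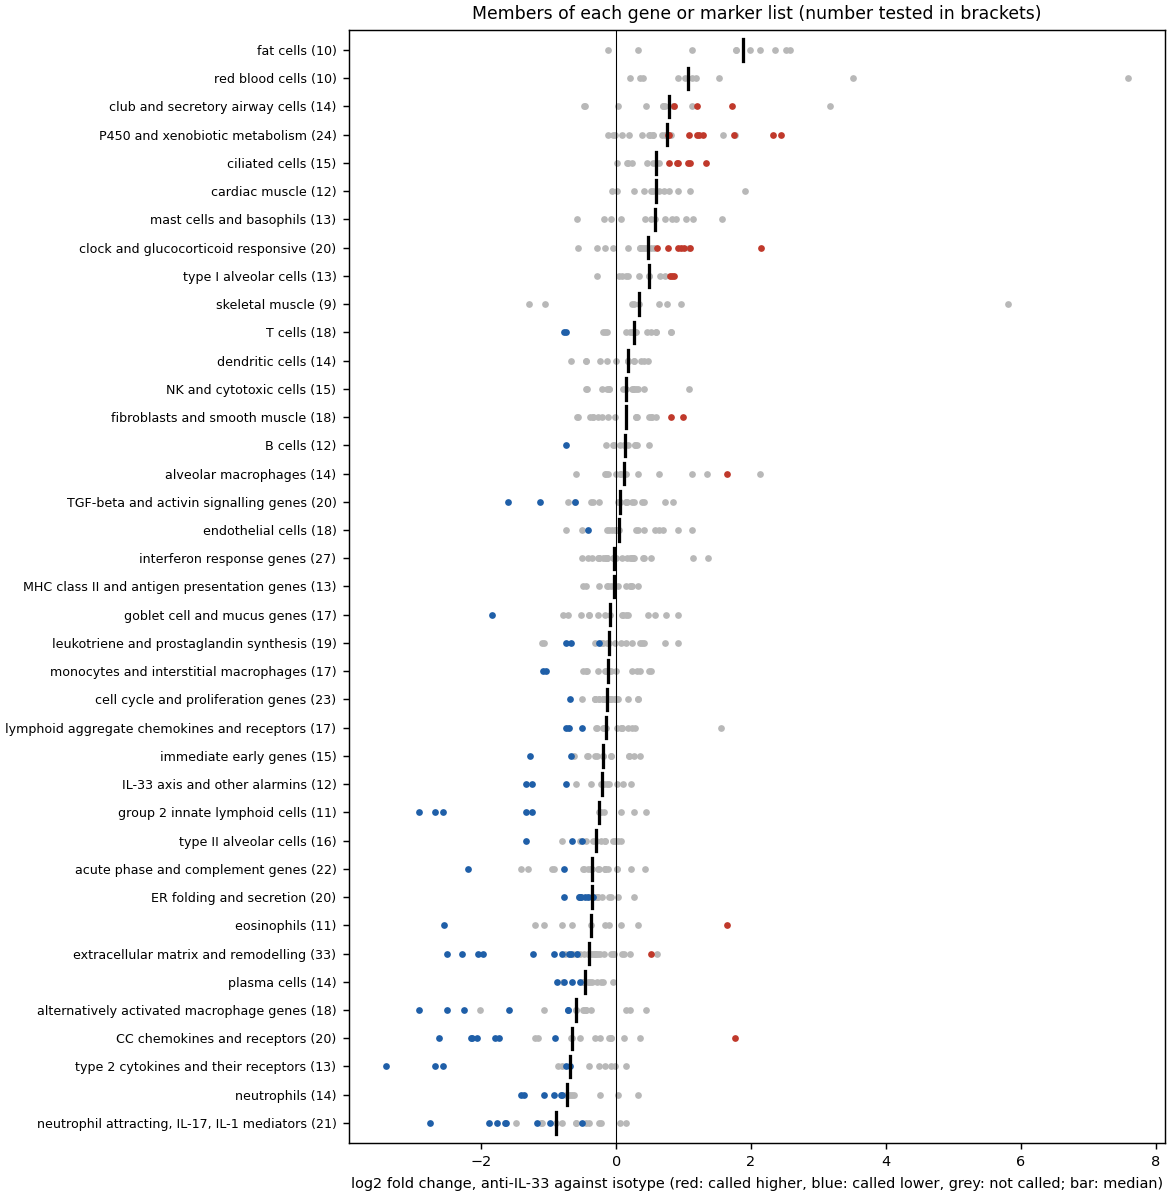
Log2 difference between anti-IL-33 and isotype (x axis) for each tested member of 39 gene and marker lists (y axis, number tested in brackets); red points rose, blue points fell, grey points were not called and black bars are medians. The mediators that attract neutrophils have the lowest median (-0.89), the fat cell markers the highest (1.88, with 0 called).

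The genes that kept their call without each isotype library were mostly outside the type 2 lists. Il13ra2, the chemokines above, Fxyd4, Sox9 and Ptges were among them and were named by the rule. Those that follow were chosen after their values were seen. Tnfrsf11b, osteoprotegerin, a soluble decoy receptor for RANK ligand and TRAIL, stood at 15.2, 16.4, 22.5 and 13.1 CPM with isotype and at 4.85 to 8.52 CPM with anti-IL-33, median 6.37, with no overlap (-1.35 ± 0.2, adjusted p = 0.000192; 0.000154 to 0.0048 with 1 isotype library left out). Ptx3, a soluble pattern recognition receptor, stood at 5.64, 5, 5.11 and 4.23 CPM with isotype and at 0.898 to 3.89 CPM with anti-IL-33, median 1.38 (-1.53 ± 0.24, adjusted p = 0.000307). Tdo2, a tryptophan dioxygenase, stood at 7.69, 7.44, 7.42 and 3.54 CPM with isotype and at 0.164 to 3.34 CPM with anti-IL-33, median 0.966 (-2.36 ± 0.38, adjusted p = 0.000398). These genes showed no overlap between the groups. The linker histone gene H1f0 fell from 168, 157, 152 and 138 CPM to 95.3 to 127 CPM, median 110 (-0.44 ± 0.06, adjusted p = 0.000192), as did Actl6a, a subunit of chromatin remodelling complexes (-0.45 ± 0.07, adjusted p = 0.000192), Cd34, a surface sialomucin (-0.5 ± 0.08, adjusted p = 0.000437), Odc1, the first enzyme of polyamine synthesis (-0.45 ± 0.09, adjusted p = 0.00518), and Cyp7b1, an oxysterol hydroxylase (-1.02 ± 0.19, adjusted p = 0.00155). The myeloid receptor Tarm1 fell by 2.34 ± 0.37 (adjusted p = 0.000355). The 4 genes that rose and held were Fam13a, a lung disease-associated gene, at 19, 20.9, 18.6 and 18.9 CPM with isotype and 26 to 68.6 CPM with anti-IL-33, median 45.8 (1.13 ± 0.23, adjusted p = 0.00426), the transcription factor Myb (1.07 ± 0.22, adjusted p = 0.00509), the phospholipid enzyme Pcyt1b (1.02 ± 0.2, adjusted p = 0.00382) and the sialyltransferase St8sia2 (1.11 ± 0.23, adjusted p = 0.00567).

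**Figure D4:**
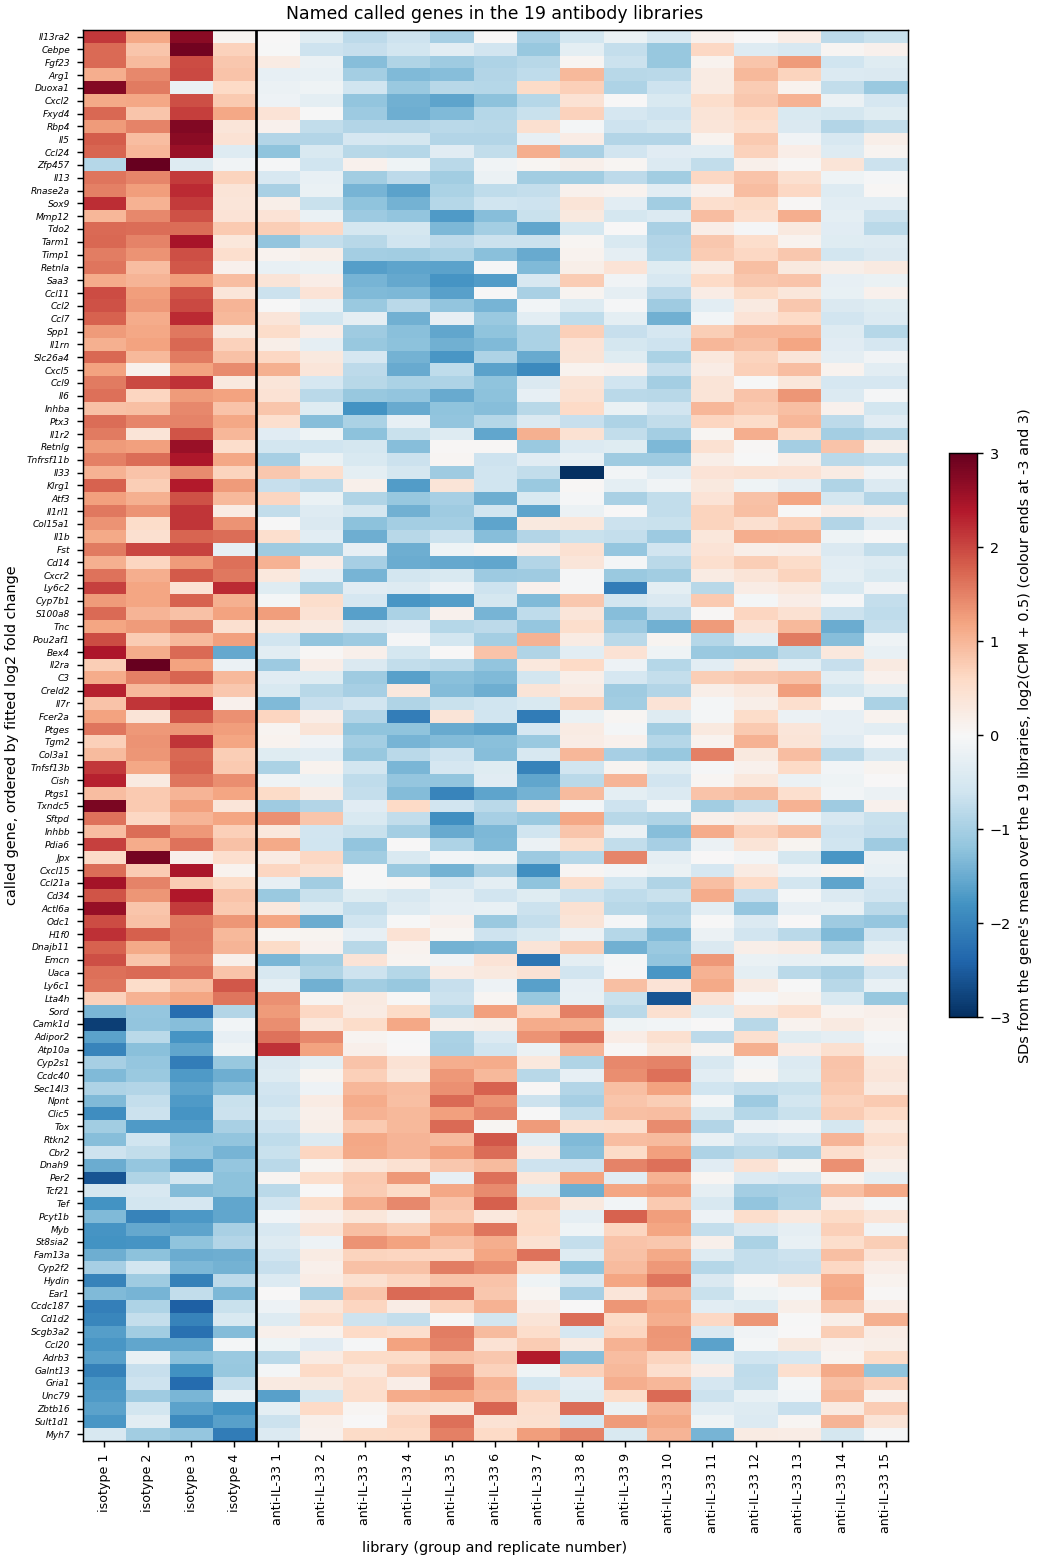
Called genes named here or by the naming rule (110 genes, y axis, ordered by fitted log2 difference) in the 4 isotype and 15 anti-IL-33 libraries (x axis), in standard deviations (SDs) from the gene's mean of log2(CPM + 0.5) over the 19 libraries. Anti-IL-33 replicates 1, 8, 11, 12 and 13 differ from the other anti-IL-33 libraries in many of the genes. There they are paler or have the colour of the isotype libraries. Examples of the latter are Il6 in replicate 13 (1.32 SDs) and Cyp2f2 in replicate 8 (-1.205 SDs).

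Most of the called genes had moved the other way with HDM. Of the 489 genes that fell with the antibody, 415 (84.9%) had risen with 15 weeks of HDM against saline, 70 were not called and 4 had fallen; of the 557 that rose, 477 (85.6%) had fallen with HDM, 75 were not called and 5 had risen. These comparisons share no library. Of all genes tested, 31.2% were raised and 28.1% lowered by HDM. The 415 genes are 8.54% of those raised by HDM, and the 477 are 10.9% of those lowered. Across all 15598 genes the antibody and HDM log2 differences had a Pearson correlation of -0.57 and a Spearman correlation of -0.68, given as a description because genes are not independent replicates. The pattern reached genes that were not called with the antibody: of 4439 such genes raised by HDM, 82.2% had a negative antibody difference, with a median of -0.2, and of 3895 lowered by HDM, 88.1% had a positive difference, with a median of 0.26. Genes called in opposite directions numbered 892, and 911 when 4 weeks of HDM against saline was the reference.

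The 9 genes called in the same direction by HDM and by the antibody, chosen after their values were seen, had log2 differences of -0.86 to 0.83. Those that were higher in both were Sord, sorbitol dehydrogenase (0.36 ± 0.09, adjusted p = 0.0215), Adipor2, an adiponectin receptor (0.45 ± 0.13, adjusted p = 0.0299), Tox, a T cell transcription factor (0.83 ± 0.22, adjusted p = 0.0243), Camk1d (0.38 ± 0.11, adjusted p = 0.0388) and the lipid flippase gene Atp10a (0.63 ± 0.18, adjusted p = 0.0332). Those lower in both were Ly6c1 (-0.4 ± 0.12, adjusted p = 0.0431), Bex4 (-0.86 ± 0.26, adjusted p = 0.0409), the noncoding RNA gene Jpx (-0.52 ± 0.16, adjusted p = 0.0474) and Uaca (-0.42 ± 0.09, adjusted p = 0.00934). None of the 9 was called without isotype replicate 1 or without isotype replicate 3, at adjusted p of 0.0553 to 0.348.

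**Figure D5:**
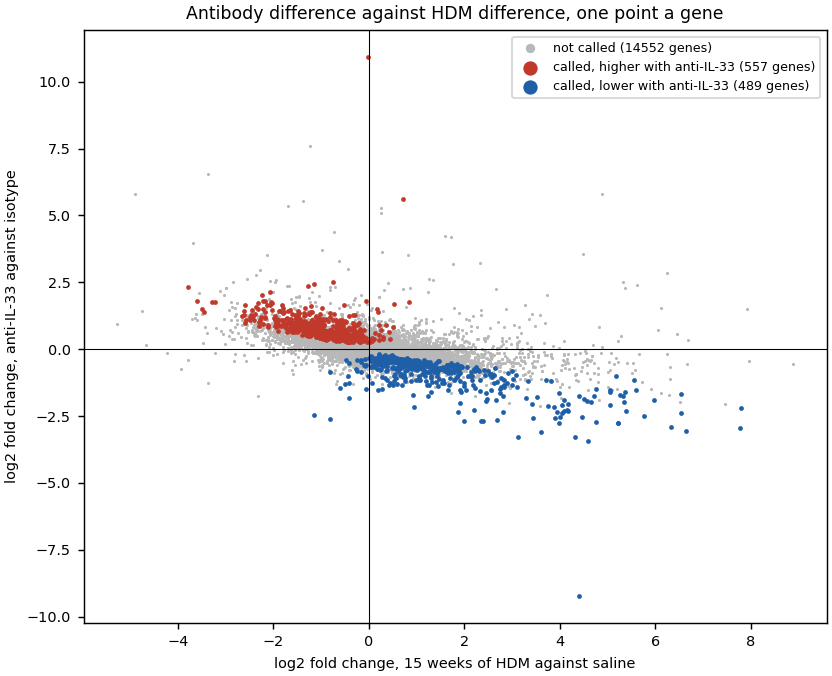
Fitted log2 difference of anti-IL-33 against isotype (y axis) against that of 15 weeks of HDM against saline (x axis), 1 point for each of the 15598 genes tested; red genes rose and blue genes fell with the antibody. Red points lie mostly to the left of 0 (477 of 557 had fallen with HDM) and blue points mostly to the right (415 of 489 had risen).

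Range 1 holds 3 of the 4 isotype libraries that the calls rest on, and in range 2 a single isotype library stands for the control. The medians of the called genes by range are therefore a description. The 489 fallen genes had a median difference of -0.83 in range 1 and -0.34 in range 2, and 453 of the 488 fitted in range 2 were negative there; the 557 risen genes had medians of 0.8 and 0.53, and 550 were positive in range 2. Log2 differences near 0 in range 2 included those of Il1rl1 at -0.03, Mmp12 at -0.1, Il7r at -0.1, Il2ra at -0.03 and Fst at 0. Others were those of Camk1d at -0.01, Zfp457 at -0.03, Spp1 at 0.05, Adipor2 at 0.06, Emcn at -0.06 and Cxcl15 at -0.08. Isotype replicate 4 was the lowest isotype library for many of the type 2 genes, such as Il13, Il5, Ccl11 and Arg1. The test of the difference between ranges called 0 of 15160 genes by edgeR (0%; 1277 had an unadjusted p under 0.05, and limma-voom also called 0), and the interaction rests on that library. Single anti-IL-33 libraries also differed in how far they lay from isotype. The share of the fallen genes that lay below all 4 isotype libraries ran from 51.9% in replicate 12 to 93.5% in replicate 10, and the share of risen genes above them from 58% in replicate 1 to 98.7% in replicate 10. The medians of these shares were alike in the 2 ranges, at 87.8% and 87.9% for fallen and 94.6% and 94.8% for risen genes. The shares are over genes called in these same libraries, and each library is set against the isotype libraries of both ranges. They therefore do not compare the size of the difference between ranges.

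Isotype libraries were also set beside the 7 libraries of 15-week HDM without antibody. Between these controls edgeR called 0 genes, and 932 (5.98%) had an unadjusted p under 0.05. With the no-antibody libraries as control in place of isotype, 5588 genes (35.8%) were called, and 1033 of the 1046 genes kept their sign.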

How the data were processed

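The authors deposited 1 table of raw counts, with a row for each Entrez gene and a column for each of the 43 libraries. Per the labels, mRNA libraries that keep strand were made from the RNA of whole lung, and per the submitters' processing notes the build was GRCm38. The sources used here do not give the aligner, counter, annotation or strand setting. Of 24475 IDs, 24375 matched a gene in the reference table; 41 unmatched IDs were tested and 3 of them called. Group membership came from sample titles.

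Counts were analysed in R 4.3.3 with edgeR 4.0.16 (TMM, filterByExpr by group, quasi-likelihood fit with robust spread, terms for group and number range, all 43 libraries), which left 15598 genes. Calls are at a Benjamini-Hochberg adjusted p under 0.05. CPM use TMM-scaled library sizes. SE is the log2 difference divided by the root of the F statistic. limma 3.58.1 and DESeq2 1.42.0 served as alternatives, and the script was tested on simulated data.

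The members and lists were chosen with earlier results of these data known. The naming rule took the 12 largest rises and 12 largest falls among called genes whose higher group averaged 2 CPM or more (no predicted or clone-named genes and no antigen receptor segments), the 3 lowest p-values of each of 39 lists, and a fixed set of names. Other names were chosen after their values were seen, and a gene that the rule takes is not reported here.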

Additional observations from a re-analysis of the deposited data

Results flagged for a closer look

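A value lay far from the rest of its group in 21 cases, of which 16 were among the isotype values of 140 named genes and 5 among the 7 saline and 7 HDM libraries of 12 genes. Chance flags about 1 in 20 groups. Each gap below was large relative to the whole range of the group.

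In isotype replicate 2, Zfp457 was high at 21.8 CPM (others 0.384 to 0.983), as were Sult1d1 at 3.42 CPM (0.608 to 0.885), Zbtb16 at 15 CPM (5.5 to 6.45), Rtkn2 at 83 CPM (64 to 66.3), Fam13a at 20.9 CPM (18.6 to 19) and Jpx at 8.67 CPM (4.5 to 5). In isotype replicate 4, the library of number range 2, Ccl20 was high at 1.97 CPM (0.384 to 0.488) and Lcn2 at 3210 CPM (1670 to 1810), while Ccl8 was low at 39.2 CPM (56.8 to 58.8), Tdo2 at 3.54 CPM (7.42 to 7.69) and Uaca at 57.4 CPM (64.8 to 65.4). In isotype replicate 1, Ccl17 was low at 11.3 CPM (13.4 to 13.8) and Ccl22 at 18.3 CPM (23.4 to 23.8), and Creld2 was high at 182 CPM (110 to 119). In isotype replicate 3, Ear1 was high at 4.74 CPM (3.05 to 3.2) and Inhba at 64.4 CPM (33.5 to 35.3).

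Among the libraries of 15-week HDM without antibody, replicate 4 was high for Arg1 at 527 CPM (others 88.3 to 242) and Timp1 at 240 CPM (29.2 to 108). Replicate 1 of that group, which stood apart over all genes, was low for Il33 at 117 CPM (556 to 869) and high for Muc5b at 818 CPM (77.7 to 216). Saline replicate 5 was high for Il33 at 133 CPM (60.2 to 89.6).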

How the results depend on the processing

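No paired analysis was possible because the labels give no replicate numbers or pairing. Over the named genes, 3989 values under an alternative kept direction and side of the threshold, 666 lost a call, 56 gained one and 38 changed sign. Counts are given as genes called, higher, lower and opposite to HDM. Scaling by DESeq2 size factors or upper quartiles, no range term, limma-voom and a correction for GC content and length kept all 4 counts within 1.5 times. The split of calls was 53.3% higher, and 46.8% with upper quartiles. A filter of at least 1 CPM in at least 4 libraries left 15598 genes and the same 4 counts as the main fit, so it was no separate check. No filter on low counts gave 687, 315, 372 and 586. Number range 1 alone gave 297, 101, 196 and 202, and range 2 alone 1, 1, 0 and 0. The 2 groups alone gave 4153, 1984 and 2169, with 2417 opposite. Ccl8, Chil4, Col1a1, Foxj1, Muc5b and Tnf gained a call in that edgeR fit, at adjusted p of 0.00705 to 0.0356. DESeq2 gave 1703, 1026, 677 and 1447. A test against 1.5-fold gave 21, 0 higher and 21 lower. HDM without antibody as control gave 5588, 2485 and 3103, and with isotype added 5802, 2887 and 2915. Leaving out 1 library gave 58 to 1502 called, 7 to 751 higher, 48 to 751 lower and 46 to 1300 opposite. The GC and length correction and leaving out the 2 HDM libraries that stood apart (4639, 2308, 2331 and 3603) were chosen after seeing the data. The difference between ranges had 0 calls, 1 in all 43 libraries, and 0 to 5 with 1 isotype library left out; without isotype replicate 4 it could not be fitted. The cause of these shifts was not tested.

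Log2 differences that changed sign in range 2 alone were Bex4 at 0.91, Camk1d at -0.01, Ccl24 at 0.79, Ccl8 at 0.08, Chil4 at 1.77, Clca1 at 0.24, Cxcl9 at -0.36, Il1rap at -0.06, Il4 at 0.77, Jchain at 0.17, Ncr1 at -0.53, Prg2 at 0.79, Retnla at 0.31 and Spp1 at 0.05. In range 1 alone they were Ly6g at 0.53 and Mcpt1 at -0.26. With HDM without antibody as control they were Gzma at 1.07, Il1rap at -0.26, Jpx at 0.14, Muc5b at -0.02 and Zfp457 at 0.34, and with the pooled control Gzma at 0.32 and Il1rap at -0.13. Il1rap was also -0.13 with the GC correction, 0 without the filter or range term and -0.01 with upper quartiles. With 1 library left out the ranges were -0.09 to 0.11 for Il1rap, 0.0 to 0.62 for Ncr1, -0.9 to 0.37 for Ly6g, -0.01 to 0.32 for Tslp and -3.08 to 0.42 for Zfp457.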

Other observations

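Some features were either absent or clearly present in each library. Over all 43 libraries, 5 features had 0 counts or at least 2 CPM in every library, with at least 5 libraries at 0 and at least 5 at 5 CPM or more. The ID 22135, which matched no gene, had 0 counts in 4 of 4 isotype libraries and in 1 of 15 anti-IL-33 libraries, while the other 14 held 12.1 to 50 CPM. It had 0 counts in 3 of 7 libraries of 15-week HDM, 7 of 10 of 4-week HDM and 1 of 7 of saline, and was called between the antibody groups (adjusted p = 0.0361 by edgeR). Sco2 had 0 counts in 1 of 4 isotype and 7 of 15 anti-IL-33 libraries and H2-Q9 in 1 of 4 and 4 of 15. Hbb-bs had 0 counts in 4 of 4 isotype and 12 of 15 anti-IL-33 libraries and the pseudogene Gm12669 in 2 of 4 and 1 of 15. None of these 4 was called.

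The predicted gene Gm8989 held 22.7, 0, 13.1 and 0 CPM in isotype replicates 1 to 4 and 0 in all 15 anti-IL-33 libraries, and Gm3383 was at 0 in 4 of 4 isotype libraries and at up to 1.3 CPM with anti-IL-33. Both were called. No fold is given for ID 22135, Gm8989 or Gm3383.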
